A study of Equus caballus with 20 samples.

Results

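The translation initiation factors (symbols beginning Eif1 to Eif6) and elongation factors (Eef1 and Eef2) were followed in muscle of horses with recurrent exertional rhabdomyolysis (RER), a disorder in which muscle stiffens and fibres break down after exercise. Members were chosen by symbol alone, and 58 of 24493 probes carried such a symbol, for 51 of 12187 named genes. RER samples were gluteus medius (hindquarter) and longissimus lumborum (back) biopsies of 5 French Trotters with high plasma activity of muscle enzymes. The comparison in each muscle was a pool of RNA from control horses of the same breed, 10 sound animals in all. Each RER sample met the pool of its own muscle on 2 arrays with the dyes exchanged, which made 20 arrays. Neither group is given a treatment, a genotype or an age in the labels, and each pool is 1 sample, so the spread among control horses enters no test.

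Translation starts when eIF2 brings the initiator tRNA to the small ribosomal subunit, a step that eIF2B recharges and that the eIF2 kinases restrain under stress. The eIF4 factors bind the mRNA cap and unwind the leader, eIF3 holds the subunit and the mRNA together, and eIF5 and eIF5B act as the start codon is found and the large subunit joins. eEF1 then brings aminoacyl-tRNA and eEF2 moves the ribosome on, and in skeletal muscle these steps respond to load, feeding and energy supply.

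The values are log2 ratios, likely of RER over pool, scaled so that each array has a median of 0, and the dye-swapped arrays of a sample were averaged. The labels give the dyes but not which channel is the numerator. Arrays of 1 dye against the same pool could run opposite ways (at the lowest, Cy3 arrays of gluteus horses 2 and 4, r = -0.341 across probes). The dye-swapped arrays correlated below 0 in 4 of 10 pairs, namely horses 2 and 3 in gluteus and horses 1 and 2 in longissimus. With the ratio read the other way round, every value below keeps its size and changes sides. Turning the Cy3 array of those 4 pairs moved the mean of 10 of the 38 tested factors to the other side of 0 in gluteus and of 7 in longissimus. Nothing in the labels favours turning Cy3 over Cy5. Turning the Cy5 array instead would give those horse values the opposite sign, and it was not run. The Cy3 arrays of gluteus horses 1 and 3, of which that of horse 3 is turned, had r = 0.397 as deposited. The turned values are thus 1 alternative and no correction. Turned values are given beside the counts by role and the main named values, though not beside every value. In 10 arrays (horses 1 to 3 in gluteus, horses 1 and 2 in longissimus) at least 22032 probes had a value, and in the other arrays at most 17708. All 4 pairs that correlated below 0 lie among the arrays with many measured probes. Results by array group therefore cannot be told apart from doubtful orientation. Ratios hold no level, so they cannot show whether a biopsy is muscle. They also cannot tell fewer cells of a type from less RNA per cell.

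No translation factor passed the test in either muscle, in the difference between muscles or in their mean. A gene was tested where at least 4 of 5 horses had a value in each muscle, which 38 of the 51 genes met. The share tested was 74.5%, against 48.6% of all genes with a symbol. Over the 10176 features tested, limma's moderated test with Benjamini-Hochberg adjustment at 0.05 called 0 in gluteus, 0 in longissimus and 0 in the difference (0% in each), and 0 of 10063 in the mean. The counts below therefore use the unadjusted p, which is no call. In gluteus, 2 of 38 members had an unadjusted p under 0.05, against 1.84% of all features, and both were below 0, against 1.21%. In longissimus the count was 4 of 38, against 4.19%, with 2 below 0, against 2.99%, and 2 above, against 1.2%. In the difference it was 2 of 38, against 1.82%, both below 0, against 1.02%. In the mean it was 1 of 38, against 1.9%, and below 0, against 1.38%. The count in gluteus was 7 without horse 4, beside 4.16% of features. It was 12 of 38 on the arrays with many measured probes, beside 5.85%, and 1 of 31 on those with few, beside 5.00%. The counts thus depend on which arrays are used, for factors and for all features.

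Small ratios below 0 were more common among the factors than ratios above 0. The median log2 ratio of the 38 was -0.053 in gluteus, with 27 below 0, beside -0.0096 and 53.9% below 0 over all features. In longissimus it was -0.096, with 26 below 0, beside -0.0032 and 51%. In the mean of both muscles 33 of 38 lay below 0, with a median of -0.068, beside 54.7% and -0.0096. The 5 members above 0 in that mean were Eif2b1, Eif2b5, Eif2s2, Eif4ebp2 and Eif4g2. The count was 26 without horse 1, beside 51.6% of features, and 20 with the 4 pairs turned, beside 44.8%. The members' medians were then -0.049 and -0.024, beside -0.0037 and 0.017 over all features. Turning those pairs left 21 of 38 below 0 in gluteus (median -0.016), beside 48.7% of features. In longissimus 23 were then below 0 (median -0.083), beside 44.6%. For most factors the 95% interval of the log2 ratio lay inside a 2-fold change either way, 35 of 38 in gluteus beside 96.8% of features and 32 of 38 in longissimus beside 94.5%. The wider ones were Eef1a2, Eef1g and Eif3m in both muscles, with Eif2ak4, Eif3d and Eif5b added in longissimus. The SE of a gene in each muscle rests on 1 spread pooled over both muscles. A wide interval in gluteus is therefore no measure of the spread among its gluteus values. Eif3m had a gluteus SE of 0.53, though its gluteus horses ran only from -0.30 to 0.019.

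**Figure D1:**
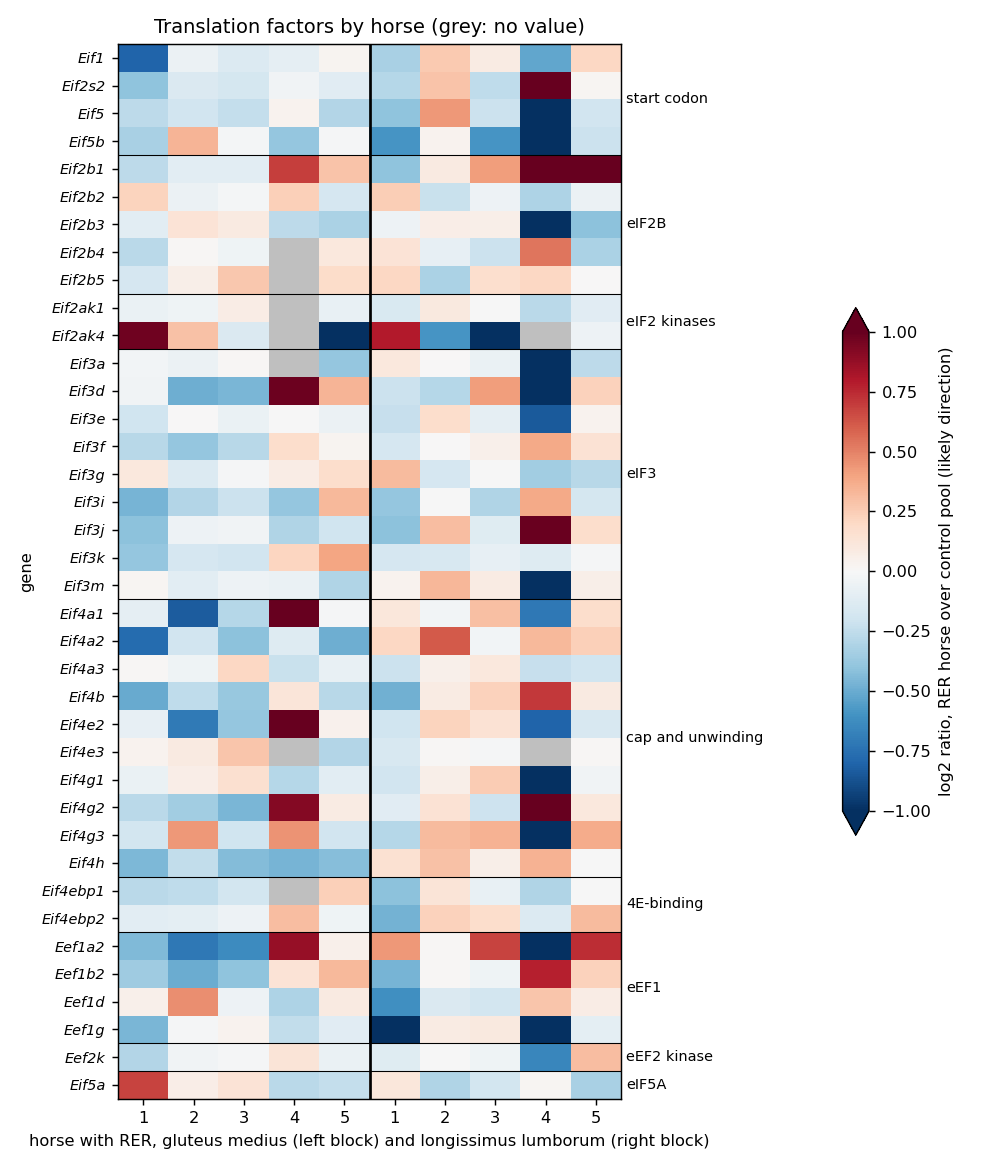
Log2 ratio of each of the 38 tested factors (rows, grouped by role) in each of the 5 RER horses, gluteus medius left and longissimus lumborum right. Colours run from -1 (blue) to 1 (red), grey has no value, and longissimus horse 4 holds the strongest colours of both kinds, with 13 of 36 measured factors beyond a 2-fold change.

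Among the cap binding and unwinding factors, Eif4h and Eif4a2 lay below the pool in gluteus and mostly above it in longissimus. eIF4A2 is 1 of the RNA helicases that open the mRNA leader, and eIF4H is a small RNA-binding protein that stimulates eIF4A. Eif4h had gluteus log2 ratios of -0.45, -0.24, -0.44, -0.47 and -0.43 in horses 1 to 5. In longissimus the same horses had 0.15, 0.29, 0.055, 0.35 and -0.0071. All 5 gluteus values were below all 5 longissimus values. The mean in gluteus was -0.41 ± 0.072 (moderated SE from the pooled spread of both muscles, n = 5 horses), 0.75 of the pool. It had an unadjusted p of 0.00017 and an adjusted p of 1 in limma. The mean in longissimus was 0.17 ± 0.072 (unadjusted p = 0.041, adjusted p = 0.827, limma).

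For Eif4a2 the log2 ratios of horses 1 to 5 were -0.77, -0.19, -0.41, -0.13 and -0.49 in gluteus. In longissimus they were 0.21, 0.61, -0.024, 0.33 and 0.24. Again no gluteus value reached the lowest longissimus value. The gluteus mean was -0.40 ± 0.11, 0.76 of the pool, with an unadjusted p of 0.0038 and an adjusted p of 1 in limma. The longissimus mean was 0.27 ± 0.11 (unadjusted p = 0.030, adjusted p = 0.827, limma). These were the 2 of 38 members whose horses did not overlap with gluteus below longissimus, which 0.423% of features showed. No member had gluteus above longissimus in that way, which 0.334% did. With the 4 pairs turned the horses overlapped for both genes, and 0 of 38 members showed this separation, beside 0.934% of features. Both genes were picked for description with earlier results of these data known, so their place among the features is no independent support.

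In the difference between muscles the same pair had the smallest p of the 38 members. Gluteus minus longissimus was -0.57 ± 0.10 for Eif4h (unadjusted p = 0.00017, adjusted p = 0.9998, limma) and -0.67 ± 0.15 for Eif4a2 (unadjusted p = 0.0012, adjusted p = 0.9998, limma). With each horse as a block, since both muscles came from the same animal, the SEs were 0.099 and 0.12, the adjusted p was 0.942 for both, and the members with an unadjusted p under 0.05 in the difference went from 2 to 7. Over all features that share went from 1.82% to 4.15%. The 5 that joined were Eif4b, Eif5b, Eif2b1, Eif4g2 and Eif3f. With the 4 pairs turned, the longissimus means changed sides, to -0.13 for Eif4h and -0.060 for Eif4a2, and the differences were -0.22 and -0.27 (unadjusted p = 0.27 and 0.23, adjusted p = 0.938 for both, limma). The gluteus means were then -0.35 and -0.33.

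The single arrays behind these means were further apart for Eif4h than for most features. Its array with RER RNA in Cy3 read above the one with RER RNA in Cy5 in 10 of 10 pairs, by 0.862 on average. A mean gap at least as large was found in 2.75% of the 6285 features with a value on every array. The gap kept 1 sign, either one, in all 10 pairs in 14.5% of those features and in 1 of 31 members. In gluteus horse 4 the Cy3 array gave 0.90 and the Cy5 array -1.83, and their mean of -0.47 sits next to those of the other horses. The gluteus mean of the Cy3 arrays alone was 0.078 ± 0.50 (SD, n = 5) and that of the Cy5 arrays -0.89 ± 0.55. The gluteus ratio of Eif4h was below 0 on 5 of 5 Cy5 arrays and on 2 of 5 Cy3 arrays. Each mean holds 5 arrays of each dye orientation, so a dye offset of equal size on all arrays cancels in it. The gap differed between pairs, from 0.233 to 2.73, and the part of that in the result was not tested. For Eif4a2 the mean gap was 0.446, reached by 18.5% of features. Its gluteus ratio was below its longissimus ratio within each dye in every horse, which 1 of 31 members with all arrays and 0.27% of features showed. For Eif4h that held on 5 of 5 Cy5 comparisons and 4 of 5 Cy3 comparisons.

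**Figure D2:**
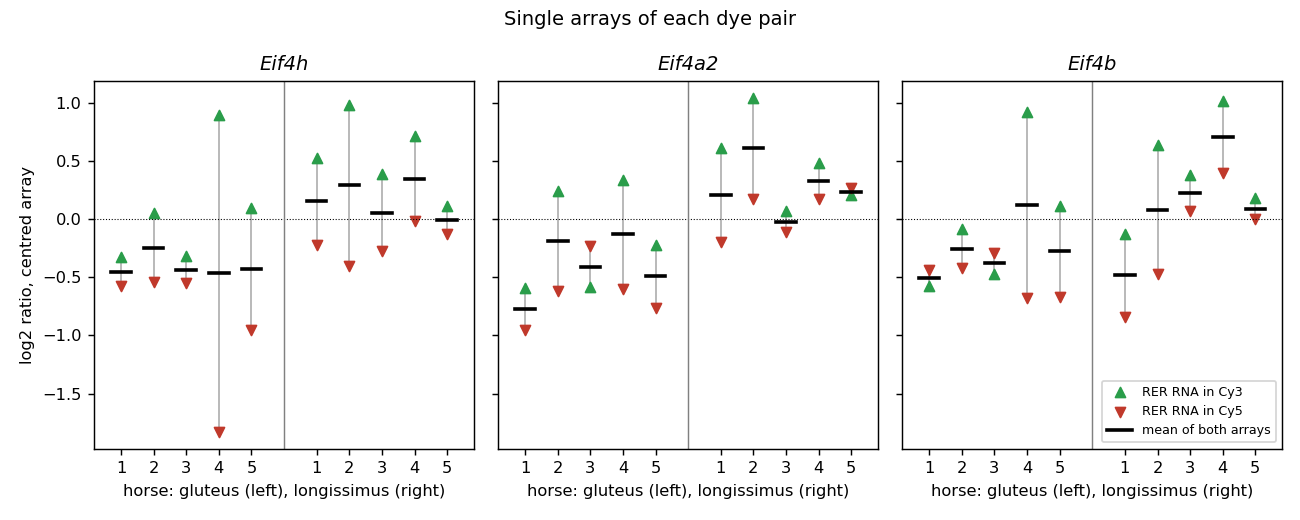
Centred log2 ratio of the single arrays for Eif4h, Eif4a2 and Eif4b, by horse, gluteus left and longissimus right in each panel. Upward triangles have the RER RNA in Cy3, downward triangles in Cy5, and bars are the means used. The gluteus bars of Eif4h run from -0.47 to -0.24 although its single arrays in horse 4 span -1.83 to 0.90.

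Eif4b encodes a second stimulator of eIF4A. Its gluteus log2 ratios were -0.51, -0.26, -0.38, 0.12 and -0.28 (mean -0.26 ± 0.14, unadjusted p = 0.098, adjusted p = 1 in limma). Its longissimus ratios were -0.48, 0.082, 0.23, 0.71 and 0.091 (mean 0.12 ± 0.14). The muscles overlapped across horses, though within each horse gluteus was the lower (difference -0.38 ± 0.20, 5 of 5 horses). That held for 5 of 38 members, Eif3f, Eif4a2, Eif4b, Eif4g2 and Eif4h, beside 4.93% of features. Turned, it held for 0 of 38, beside 5.91% of features. Eif4b then had a gluteus mean of -0.15 and a difference of -0.17 (unadjusted p = 0.48, adjusted p = 0.938, limma). Without horse 4 the gluteus mean was -0.35 (limma, unadjusted p = 0.012, adjusted p = 0.988, which ran from 0.764 to 1 over the alternatives). The other cap and unwinding factors had gluteus means from -0.048 to 0.062 and longissimus means from -0.38 to 0.24. They include the scaffolds Eif4g1 (-0.048 ± 0.26 and -0.38 ± 0.26), Eif4g2 (-0.016 ± 0.23 and 0.24 ± 0.23) and Eif4g3 (0.062 ± 0.21 and -0.069 ± 0.21). Eif4a1, the helicase closest to Eif4a2, had 0.0033 ± 0.24 in gluteus and -0.031 ± 0.24 in longissimus, and its horses ran from -0.83 to 1.23 in gluteus. Eif4a3, a helicase of the exon junction complex, had -0.025 ± 0.082 and -0.10 ± 0.082. Of all 10 tested cap and unwinding factors, 7 were below 0 in gluteus (median -0.021) and 6 in longissimus (median -0.034). With the pairs turned these counts were 6 and 7.

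The eIF4E-binding proteins hold the cap-binding protein eIF4E away from eIF4G until mTOR phosphorylates them. Eif4ebp1 had gluteus log2 ratios of -0.27, -0.26, -0.18 and 0.23 in horses 1, 2, 3 and 5, with a mean of -0.12 ± 0.12. In longissimus it had -0.41, 0.13, -0.076, -0.30 and -0.0018 (mean -0.13 ± 0.10). Eif4ebp2 had 0.0027 ± 0.11 and 0.022 ± 0.11. With the pairs turned the gluteus mean of Eif4ebp1 was -0.0026. Neither gene had an unadjusted p under 0.05, and both intervals lay inside a 2-fold change.

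The factors of initiator tRNA delivery and start codon choice were mostly below the pool, with all 4 tested members below 0 in gluteus (median -0.18) and 3 of 4 in longissimus (median -0.23). The counts were the same with the 4 pairs turned, with medians of -0.071 and -0.33. None passed the test. Eif5b, the GTPase of subunit joining, had longissimus log2 ratios of -0.59, 0.032, -0.59, -1.82 and -0.21. Horse 4 was far the lowest, and horse 2 the only one above 0. The mean was -0.63 ± 0.22 (unadjusted p = 0.014, adjusted p = 0.827, limma), and -0.34 without horse 4 (unadjusted p = 0.029, adjusted p = 0.9997, limma, 0.244 to 1 over the alternatives). Its gluteus values were -0.32, 0.34, -0.022, -0.39 and -0.013, which centre near 0 (mean -0.082 ± 0.22). In every horse the gluteus value was the higher, by 0.55 ± 0.31 on average, and no other member had gluteus above longissimus in all measured horses (1 of 38, against 5.27% of features). With the pairs turned it was again the 1 member of 38, beside 3.8%. These counts use the average of the 2 Eif5b probes. On the probe measured in all 5 horses, horse 2 had -0.057 in gluteus and 0.19 in longissimus, so the pattern did not hold there. The other probe read 0.74 in gluteus horse 2 and had values in 3 gluteus and 2 longissimus horses.

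Eif5 encodes the protein that makes eIF2 hydrolyse its GTP at the start codon. It had longissimus log2 ratios of -0.40, 0.43, -0.22, -1.61 and -0.19 (mean -0.40 ± 0.21, unadjusted p = 0.091, adjusted p = 0.827, limma), and -0.094 without horse 4. Its gluteus ratios were -0.26, -0.19, -0.24, 0.038 and -0.30 (mean -0.19 ± 0.21). In the mean of both muscles it was the 1 member with an unadjusted p under 0.05, at -0.29 ± 0.12 (unadjusted p = 0.048, adjusted p = 0.999, limma), and at -0.17 without horse 4. Eif1, which guards the fidelity of start codon choice, had gluteus ratios of -0.80, -0.061, -0.14, -0.093 and 0.024. Horse 1 set its mean of -0.21 ± 0.14, which was -0.067 without that horse. In longissimus its values of -0.32, 0.26, 0.08, -0.52 and 0.20 straddled 0 (mean -0.059 ± 0.14). Eif2s2, the beta subunit of eIF2, was below 0 in all 5 horses in gluteus, from -0.40 to -0.031 (mean -0.17 ± 0.18), and ran from -0.29 to 1.17 in longissimus. Its gluteus values in horses 2 and 3 were 0.10 and 0.12 when turned.

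The subunits of eIF2B, which exchanges GDP for GTP on eIF2, showed no common side. In both muscles 2 of the 5 were below 0 and 3 above, and with the pairs turned 3 were below 0 in gluteus and 2 in longissimus. Eif2b1, the regulatory alpha subunit, had longissimus log2 ratios of -0.40, 0.091, 0.42, 1.13 and 1.05. Horses 4 and 5 stood above a 2-fold change and horse 1 lay below the pool. The mean was 0.46 ± 0.21 (unadjusted p = 0.055, adjusted p = 0.827, limma). It was 0.67 without horse 1, 0.29 without horse 4 and -0.16 on the arrays with many measured probes, those of horses 1 and 2. In gluteus Eif2b1 had -0.27, -0.11, -0.11, 0.69 and 0.28 (mean 0.10 ± 0.21), with horses 4 and 5 again the highest. Eif2b3, the gamma subunit, had longissimus ratios of -0.053, 0.07, 0.062, -1.02 and -0.41 (mean -0.27 ± 0.15, and -0.082 without horse 4). Its gluteus ratios of -0.11, 0.14, 0.087, -0.26 and -0.31 averaged -0.092 ± 0.15. Eif2b5, the catalytic epsilon subunit, had 0.086 ± 0.11 and 0.055 ± 0.10.

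Of the kinases that phosphorylate eIF2, Eif2ak1 (activated by lack of haem) and Eif2ak4 (GCN2, activated by lack of amino acids) could be tested. Eif2ak1 stayed close to the pool, at -0.027 ± 0.08 in gluteus and -0.087 ± 0.072 in longissimus. Eif2ak4 spread widely, from -1.13 to 0.97 in gluteus and from -1.49 to 0.79 in longissimus, with means of -0.001 ± 0.39 and -0.34 ± 0.39.

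Of the eIF3 subunits, 7 of 9 tested were below 0 in each muscle, with median log2 ratios of -0.10 in gluteus and -0.11 in longissimus. With the 4 pairs turned, 4 of 9 were below 0 in gluteus (median 0.0052) and 6 of 9 in longissimus (median -0.14). In the mean of both muscles 9 of 9 were below 0, from -0.42 to -0.0041, and none had an unadjusted p under 0.05. When turned, 5 of 9 were below 0 in that mean, and Eif3d, Eif3f, Eif3i and Eif3j were above it. Eif3i, a subunit of the outer module, stood at -0.46, -0.29, -0.21, -0.39 and 0.32 in gluteus (mean -0.21 ± 0.13) and in longissimus at -0.39, -0.0032, -0.30, 0.38 and -0.17 (mean -0.10 ± 0.13). In gluteus only horse 5 stood above 0. Its gluteus mean was 0.020 with the 4 pairs turned. Eif3f stood at -0.28, -0.39, -0.28, 0.17 and 0.025 in gluteus (mean -0.15 ± 0.10) and in longissimus at -0.17, 0.0015, 0.047, 0.38 and 0.14 (mean 0.082 ± 0.10). Its horses 1, 2 and 3 all lay below horses 4 and 5 in gluteus, the division between arrays with many and with few measured probes. With the 4 pairs turned its gluteus mean was 0.0052.

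Eif3j, a loosely attached subunit, was below 0 in all 5 horses in gluteus, at -0.41, -0.047, -0.038, -0.30 and -0.20 (mean -0.20 ± 0.16). In longissimus it ran -0.41, 0.31, -0.12, 0.99 and 0.18 (mean 0.19 ± 0.16), so the muscles overlapped. Eif3a, the largest subunit and core of the complex, had gluteus values of -0.028, -0.061, 0.01 and -0.39 in horses 1, 2, 3 and 5 (mean -0.12 ± 0.20). In longissimus it had 0.10, 0.0015, -0.066, -1.27 and -0.27 (mean -0.30 ± 0.18, and -0.057 without horse 4). Eif3k was the 1 member below 0 in every horse in longissimus, beside 3% of features, and its values were small, from -0.17 to -0.015. None was above 0 in every longissimus horse, beside 1.96%. In the mean of both muscles the 1 member below 0 in every horse was Eif2b4, beside 3.22%. Turned, the counts below 0 in every horse were 5 in longissimus, beside 7.06% of features, and 4 in the mean, beside 7.19%, and Eif3k and Eif2b4 were among them. In gluteus 4 of 38 members were below 0 in every measured horse (Eif2s2, Eif3j, Eif4a2 and Eif4h), beside 4.23% of features, and 0 of 38 were above 0 in every one, beside 5.5%. Of those 4 only Eif4h was still below 0 in every horse with the pairs turned, when 3 of 38 members were, beside 2.07% of features.

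The eEF1 subunits had 3 of 4 below 0 in each muscle, with median log2 ratios of -0.16 in gluteus and -0.37 in longissimus. With the 4 pairs turned only Eef1g was below 0 in gluteus (1 of 4, median 0.081), and Eef1a2 and Eef1g in longissimus (2 of 4, median -0.27). Eef1g, a subunit of the complex that recharges eEF1A, had longissimus ratios of -1.21, 0.08, 0.095, -3.18 and -0.10. Horses 1 and 4 were low and the rest near the pool, giving a mean of -0.86 ± 0.39 (unadjusted p = 0.050, adjusted p = 0.827, limma). Without horse 4 it was -0.28. Its gluteus ratios were -0.45, -0.0084, 0.035, -0.24 and -0.11 (mean -0.16 ± 0.39). Eef1a2, the eEF1A of adult muscle and nerve, ran from -0.71 to 0.87 in gluteus (mean -0.17 ± 0.69). In longissimus 4 horses lay between 0.013 and 0.74 and horse 4 at -4.93 (mean -0.61 ± 0.69). Eef1b2 and Eef1d, exchange factor subunits, had gluteus means of -0.16 ± 0.17 and 0.048 ± 0.13. Of the rest of elongation, Eef2k, the kinase that switches eEF2 off, had -0.057 ± 0.12 and -0.10 ± 0.12, and Eif5a, which carries hypusine and helps the ribosome past slow peptide bonds, had 0.075 ± 0.13 and -0.14 ± 0.13.

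**Figure D3:**
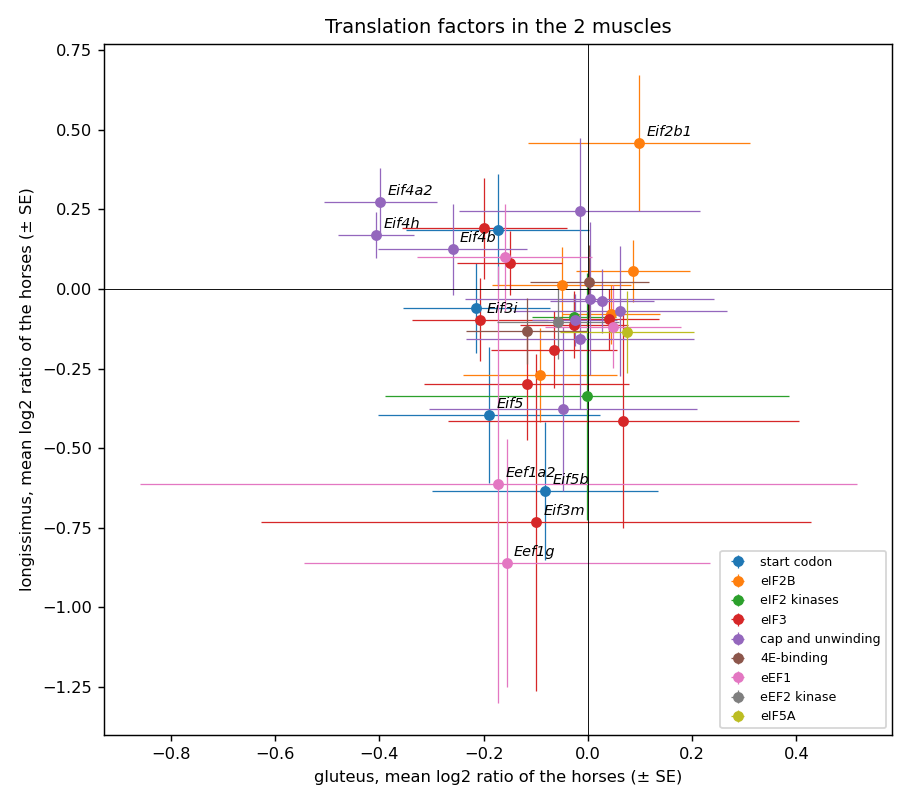
Mean log2 ratio of each of the 38 tested factors in gluteus (x axis) against longissimus (y axis), coloured by role. Bars are 1 moderated SE, from a spread pooled over both muscles. Eif4a2 (-0.40, 0.27) and Eif4h (-0.41, 0.17) lie alone at the upper left, while Eef1g, Eif3m, Eef1a2 and Eif5b lie low on the longissimus axis, 3 of them with long bars.

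In 7 genes, 2 probes could be set side by side, and they often disagreed. Over the 49 horse and muscle values that both probes gave, 28 had the same sign. Eif5 was the widest case. In longissimus horse 4 one probe read -3.57 and the other 0.36. The longissimus mean of Eif5 was -0.86 from the first probe and 0.065 from the second, so the low values of Eif5 rest on 1 probe. For Eif5b, 1 of 5 shared values agreed in sign, and the probe measured in all 5 horses gave -0.75 in longissimus. Eif4h and Eif4a2 had 1 probe each, so no second probe bears on them. All member probes carry mouse-style symbols, and how well they match horse transcripts was not tested.

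**Figure D4:**
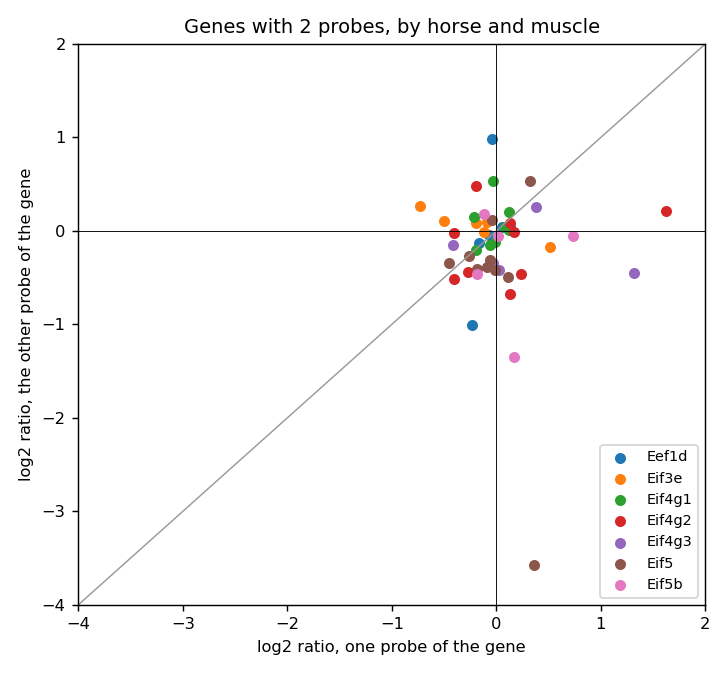
Log2 ratio by 1 probe (x axis) against the other probe of the same gene (y axis) for the 7 factors with 2 probes, each point a horse and muscle. Points on the diagonal would agree, and the lowest point is Eif5 in longissimus horse 4, at 0.36 and -3.57.

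The factors' values also differed by horse. The median log2 ratio of the 38 by horse was -0.231, -0.080, -0.088, 0.038 and -0.062 in gluteus and -0.181, 0.057, -0.0090, -0.285 and 0.0097 in longissimus. Horse 1 was low in both muscles. Longissimus horse 4 was the lowest of all and the most spread out, with a standard deviation across factors of 1.41, beside 0.868 for all features. There 13 of 36 measured factors (36.1%) were beyond a 2-fold change, 10 of them below the pool, beside 18% of features. The lowest were Eef1a2 at -4.93, Eif3m at -4.17, Eef1g at -3.18 and Eif3d at -2.23. Its 2 arrays had r = 0.849 across probes and 0.945 across member probes. Macrophage markers, of which 2 of the 7 on the array were tested, had a median of -1.02 in that sample, against -0.223 to 0.058 in the other longissimus samples. The other marker lists had medians there of 0.29 (muscle fibres), 0.147 (endothelium), 0.054 (blood) and -0.0435 (fibroblast matrix), and adipocyte markers had no value. The part of any cell type in these ratios was not tested.

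Cytosolic ribosomal proteins, part of the machinery the factors act on, divided by horse in another way. The median of the 61 tested was -0.241, -0.411, -0.439, 0.463 and 0.249 in gluteus. In 55 of 61, gluteus horses 1, 2 and 3 all lay below horses 4 and 5, as the arrays divide by measured probes. Of the factors 13 of 38 did so, beside 24.1% of features, and 8 lay the other way, beside 25.5%. When those 4 pairs were turned, the first arrangement held in 32 of 61 ribosomal proteins and 5 of 38 factors, beside 10.2% of features. In longissimus horse 4 the ribosomal proteins stood at 0.408 and the factors at -0.285. In gluteus horse 4, Eif4a1 (1.23), Eif4e2 (1.05), Eif3d (0.98) and Eif4g2 (0.92) were the highest factors. Fibroblast matrix genes (4 of 8 on the array tested) had a median of 2.10 in that sample and between -0.604 and 0.201 in the other gluteus samples, and muscle fibre genes (8 of 11) had -0.399. Their part in the factors' ratios was not tested.

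**Figure D5:**
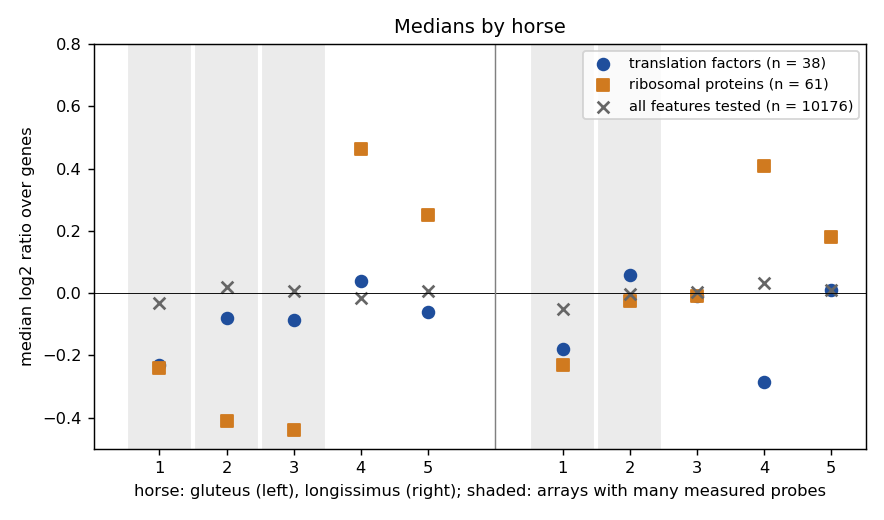
Median log2 ratio (y axis) over the 38 translation factors, the 61 cytosolic ribosomal proteins and the 10176 features tested, by horse and muscle (x axis), shaded where the arrays had many measured probes. Ribosomal proteins run from -0.439 to 0.463 and translation factors from -0.285 to 0.057 over the same samples.

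Genes that work beside the factors gave 0 calls in either muscle. Of the termination, recycling and poly(A)-binding genes, 7 of 13 on the array were tested, 6 below 0 in gluteus and 2 in longissimus. Etf1, the release factor that reads stop codons, was below 0 in 5 of 5 horses in gluteus (mean -0.30 ± 0.12, unadjusted p = 0.031, adjusted p = 1, limma) and at 0.16 ± 0.12 in longissimus, and its partner Gspt1 had -0.13 ± 0.13 and -0.23 ± 0.13. The mTOR route to the cap had 6 of 11 tested genes below 0 in gluteus and 5 in longissimus. There Mknk1, which phosphorylates eIF4E, had -0.28 ± 0.36 and -0.83 ± 0.36 (unadjusted p = 0.042, adjusted p = 0.827 in longissimus, limma). Its longissimus horses ran from -2.91 to 0.037. The kinase Akt2 had 0.25 ± 0.14 and 0.16 ± 0.14. Of the integrated stress response, which runs downstream of the eIF2 kinases, Nck1 had -0.068 ± 0.21 and -0.49 ± 0.21 and its transcription factor Atf4 -0.14 ± 0.094 and 0.085 ± 0.094. These were 2 of 9 such genes on the array. The longissimus horses of Nck1 ran from -1.75 to 0.10. Of the mitochondrial translation factors 3 of 9 were tested, and Tsfm had -0.027 ± 0.18 and 0.18 ± 0.18 while Mtif2 had -0.13 ± 0.17 and 0.084 ± 0.17. Farsb, the phenylalanyl-tRNA synthetase subunit, had -0.17 ± 0.14 and -0.11 ± 0.12, and Dph1, an enzyme of the diphthamide residue of eEF2, -0.079 ± 0.13 and -0.15 ± 0.13.

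The 13 genes left untested include several central factors, and each had too few measured horses in at least 1 muscle. Eef2, the translocation factor, stood above the pool in all 4 gluteus horses measured, from 0.18 to 0.67, and at 0.91 and -0.61 in the 2 longissimus horses. Turned, its gluteus horse 3 read -0.95 and the longissimus horses -0.29 and -0.21. Eif4e, the cap-binding protein, was measured in 3 gluteus horses, from -1.88 to -0.12, and in 2 longissimus horses. Eif2s1, the eIF2 subunit that the kinases phosphorylate, ran from -0.21 to 0.57 in 4 gluteus horses. In longissimus horses 1 and 2 it had 0.69 and -0.17. Turned, its gluteus horses 2 and 3 read 0.75 and 0.69 and those longissimus horses 0.83 and 1.13. Eif2ak3 (PERK, the kinase of the endoplasmic reticulum) was above the pool in 3 of 3 gluteus horses (0.22 to 0.44) and below it in 2 of 2 longissimus horses (-0.40 and -0.36). Both longissimus samples are pairs of doubtful orientation. Turned, they read 0.65 and 0.35, and gluteus horse 3 read -0.31, so the sides in the muscles are not settled. Eif2ak2 (PKR, activated by double-stranded RNA) ran from -0.22 to 0.24 in 3 gluteus horses. Eif3h was above the pool in 4 of 5 gluteus horses and in 2 of 2 longissimus horses, and below it in those 2 longissimus horses when turned (-0.55 and -0.75). Eif3b ranged from -1.89 to 0.00032 in 3 gluteus horses. The lowest, in horse 2, came from arrays at -3.82 and 0.039, and read 1.93 when turned. Eif6, which keeps the subunits apart, lay between -0.12 and 0.079 in 3 gluteus horses. The others, Eef1e1, Eif1ad, Eif1b, Eif4enif1 and Eif5a2, had horse values between -0.63 and 0.52 over both muscles. Turned, longissimus horse 1 read 1.82 for Eif1b, -1.03 for Eef1e1 and -0.92 for Eif1ad, so that narrow range depends on the orientation.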

How the data were processed

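RNA from muscle biopsies of 5 RER horses was measured against the control pool of the same muscle on 20 two-channel arrays, 2 dye-swapped arrays per horse and muscle. Per the labels' protocols, RNA was extracted with TRIZOL, labelled indirectly with Cy3 or Cy5, with each dye swap averaged. The authors deposited log2 ratios, normalized in a way not given in the sources used here. The values themselves gave the log2 scale: they have a floor at -6.6439 and array medians within 0.0444 of 0. Which channel is the numerator and which centring was applied stay unknown.

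Each array was centred on its median, dye pairs were averaged where both arrays had a value, and probes of 1 symbol were averaged (22988 features). Probe symbols come from a platform annotation, and 13692 of 24493 probes had 1 symbol, the rest none. Features measured in 4 or more horses of both muscles were tested against 0 with limma 3.58.1 (lmFit, eBayes) in R 4.3.3, with Benjamini-Hochberg adjustment over all features at 0.05. Both muscles and their difference shared 1 fit without a block, and the mean of both muscles from 5 per-horse means. Intervals are 95%. The number of arrays limits the precision.

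Horse numbers pair the muscles, since titles give the same animal. As a check, a horse's deviations in gluteus and in longissimus had correlations of 0.58, 0.304, -0.0976, 0.0206 and -0.00245 in horses 1 to 5. Members and gene lists were chosen with earlier results of these data known. Genes named horse by horse were Eif4h, Eif4a2 and the members with the smallest p, 8 in each muscle, 4 in the difference and 4 in the mean. Up to 2 genes of each related list were named by smallest p, and untested members and other factors were described by role. The fit was tested on simulated data for gluteus with 10176 features. There 44% of 100 shifts of 0.5 and 82% of 100 shifts of 1 (log2) were called. The simulated noise was independent and normal, without dye conflict, array groups or an outlying horse. In the real gluteus fit the median SE was 0.142 for the members and 0.118 for all features. The rates are thus not those for these factors. Alternatives were the orientation of 4 pairs, no centring, single probes, other filters, single arrays, floor and zero values, array groups, leaving out each horse, the horse as a block, and each muscle alone.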

Additional observations from a re-analysis of the deposited data

Results flagged for a closer look

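In 10 of 78 sets of 4 or 5 horses, 1 horse stood apart from the others by Dixon's criterion, where chance alone gives about 1 in 20. Each of the 10 was a tested factor in 1 muscle. The sets share the same arrays and no share over all features was taken, so the count is not read as a trait of the factors. Longissimus horse 4, where 18% of all features were beyond a 2-fold change, was the horse in 6 of them. There Eef1a2 was at -4.93 (other horses 0.013 to 0.74), Eif3m at -4.17 (0.034 to 0.33), Eif3d at -2.23 (-0.28 to 0.42), Eif4g1 at -1.97 (-0.20 to 0.25), Eif3a at -1.27 (-0.27 to 0.10) and Eif4g2 at 1.29 (-0.21 to 0.15). All log2 ratios here are means of a dye pair. Eif1 in gluteus horse 1 was at -0.80, with the other horses from -0.14 to 0.024. Eif4ebp2 in gluteus horse 4 was at 0.31, with the others from -0.10 to -0.044. Eif4e3 in longissimus horse 1 was at -0.16, with 3 others from -0.014 to 0.015. Eif4h in gluteus horse 2 was at -0.24, closer to the pool than the others, which ran from -0.47 to -0.43.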

How the results depend on the processing

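No factor passed the adjusted threshold under any alternative run, in 394 values of the members named by p, of which 10 had the opposite sign. Using only the arrays with few measured probes called 1 feature in gluteus, 2 in longissimus and 1 in the mean of both muscles, none of them a factor. The 10 opposite values were, with the 4 pairs turned, Eif3i (0.020) and Eif3f (0.0052) in gluteus and Eif4a2 (-0.060) and Eif4h (-0.13) in longissimus; on arrays with few measured probes, Eif3f in gluteus (0.10); by 1 of its probes, Eif5 in longissimus (0.065); and on arrays with many measured probes, in longissimus, Eif2b1 (-0.16), Eif5 (0.015), Eif2b3 (0.0088) and Eif3a (0.052). The cause was not tested. Leaving out each horse kept 0 features called in each comparison, and the members' median between -0.11 and -0.038 in gluteus and between -0.12 and -0.025 in longissimus. In the difference between muscles that median was 0.068, -0.099 without horse 4 and -0.081 on arrays with many measured probes. Members at an unadjusted p under 0.05 numbered 2 in gluteus, beside 1.84% of features. The gluteus count was 1 with pairs turned, beside 1.36%, and 6 with the muscle fitted alone, beside 5.01%. Leaving out horses gave 2 to 7 in gluteus, beside 4.16% for the 7. In longissimus the count was 4, beside 4.19%. It was 0 on arrays with many measured probes, beside 1.65%, 2 on those with few, beside 5.40%, and 2 alone, beside 1.44%. Leaving out horses gave 2 to 4 in longissimus, while the share of features ran from 2.60% to 8.76%. In the difference the count was 2, and 2 to 4 leaving out horses, while that share ran from 1.18% to 3.68%. In the mean it was 1, and 0 to 2 leaving out horses, while that share ran from 0.898% to 5.12%. With the pairs turned, features at an unadjusted p under 0.05 in longissimus went from 426 to 1653 (16.2%) and members from 4 to 5. The horse as a replicate block (consensus correlation 0.201) called 0 features in gluteus, longissimus and the difference, and moved the members' unadjusted count in the difference to 7, as all features went from 185 to 422. It could not be fitted to the mean, which has 1 value per horse. Signal over background was not given, so its limits were not analysed here.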
